A study of Mus musculus with 9 samples.

Results

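The genes described here are those of the proteasome, the protease that degrades ubiquitin-tagged proteins. They were taken as every gene symbol that begins with Psm, continues with a letter from a to g and then a number, which gave 50 genes of the 55335 entries in each table. RNA was measured in mouse embryos of the 8-cell stage that had been injected as zygotes, after in vitro fertilization, with short interfering RNA (siRNA). The control group received a nontargeting siRNA, the MFN1-KD group siRNA against Mfn1, which encodes an outer mitochondrial membrane fusion protein, and the H3.3-KD group siRNA against H3f3a and H3f3b together, the genes of the histone variant H3.3. Each group had 3 libraries, each made from a pool of embryos by the Smart-Seq2 method, and the study's methods name ICR mice. For in vitro fertilization those methods name superovulation of the dams with pregnant mare serum gonadotropin and human chorionic gonadotropin. No other allele or agent is named for these libraries, and the control embryos were injected like the others. The age of the dams behind these libraries is not given separately in the sources used here. A knockdown by injected siRNA lowers the transcript and does not delete the gene. No label says that the pools of a group came from separate rounds of fertilization, so the p-values below measure only the spread between these libraries.

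The proteasome is built from a barrel-shaped core particle and a regulatory particle that caps it. The core is a stack of rings: the α subunits (Psma genes) form the outer rings that gate the entrance, and the β subunits (Psmb genes) form the inner rings that hold the cutting sites. The regulatory particle has a base with a ring of ATPases (Psmc genes) that unfold the substrate, and non-ATPase subunits (Psmd genes) that recognise ubiquitin, remove it and hold the particle together. Other caps open the core without ubiquitin (Psme genes), Psmf1 encodes an inhibitor of the core, and dedicated chaperones assemble the rings (Psmg genes) and the base (Psmd5, Psmd9, Psmd10). The early embryo relies on this system to clear proteins stored in the egg. The gene Psmc3ip carries the prefix only by name: its product is a partner in meiotic recombination and not a proteasome subunit.

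The levels were deposited as FPKM, a fragment count scaled to transcript length and library size, so that they can be set side by side between genes. The read depth of the libraries is unknown from these values. The FPKM of all entries summed to 1113563 to 1331977 in the control libraries, 1130408 to 1203650 in MFN1-KD and 933452 to 968604 in H3.3-KD. No analysis here scaled the libraries to a common sum, which would make each fall in H3.3-KD against control smaller. Between 21643 and 22507 entries were above 0 in the control libraries, between 15577 and 20842 in MFN1-KD, with the fewest in replicate 3, and between 23655 and 24820 in H3.3-KD. Mfn1 was at 51.6, 22.6 and 23.8 FPKM in the control libraries and at 9.54, 4.40 and 1.15 FPKM in MFN1-KD, a log2 fold change of -2.66 ± 0.58 (SE, adjusted p = 0.0431) that passed the test in 8 of 18 alternative analyses with other scalings, filters or sets of libraries. The levels of H3f3a and H3f3b in H3.3-KD were below every control library, with log2 fold changes of -3.69 and -3.64. Of 8 genes listed as markers of 8-cell and morula embryos, 6 to 8 were at 1 FPKM or more in each library. Their summed level was 249 to 284 FPKM in control, 260 to 295 for MFN1-KD and 380 to 769 for H3.3-KD. These markers did not move together in H3.3-KD. Pou5f1 was at 7.73, 8.90 and 5.10 FPKM in control and at 330, 392 and 63.1 in H3.3-KD. Sall4 was lower, at 50.7, 42.7 and 48.05 FPKM against 106, 111 and 139 in control, and Nanog overlapped control. Of 10 genes listed for the cumulus cells that surround the egg, 1 (Amhr2) reached 1 FPKM and 3 to 9 were at 0 in each library, with sums of 16.1 to 29.8 FPKM in control, 10.3 to 19.9 for MFN1-KD and 38.3 to 67.4 for H3.3-KD. Of 6 genes listed for oocytes 4 to 6 were at 1 FPKM or more in each library, with sums of 23.9 to 60.8 FPKM. The sums of 4 sperm genes were at most 2.93 FPKM, and those of 5 leukocyte genes 1.52 to 34.3 FPKM. The part of these differences between libraries in the results below was not tested.

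In control embryos the proteasome genes were among the more abundant transcripts. Genes were tested where their mean over all 9 libraries reached 1 FPKM, which held for 45 of the 50. Of these 45, 27 stood in the top 10% of the 13011 genes tested, whose median in control was 6.43 FPKM. The mean control levels of the 7 tested α genes ran from 375 to 1306 FPKM with a median of 675, and those of the 8 tested β genes from 64.6 to 804 with a median of 531. The 6 ATPase genes had means of 65.7 to 274 FPKM with a median of 248, and the 11 non-ATPase regulatory genes means of 25.6 to 427 with a median of 201. The chaperones and the other caps were lower, with medians of 63.4 FPKM for the 4 core assembly chaperones and 24.9 for the 5 tested activator and inhibitor genes, and with means of 20.3 to 39.5 for the 3 chaperones of the regulatory particle. Psma6, an α ring subunit, was the most abundant member at 1306 ± 126 FPKM (SD, n = 3), and its neighbour in that order, Psma3 at 1263 ± 109 FPKM, did not differ from it beyond this spread. Within the regulatory particle the levels were uneven: Psmd11, a subunit that clamps the regulatory particle to the core, was at 427 ± 68.3 FPKM, whereas Psmd3, another subunit of the lid, was at 25.6 ± 8.18.

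**Figure D1:**
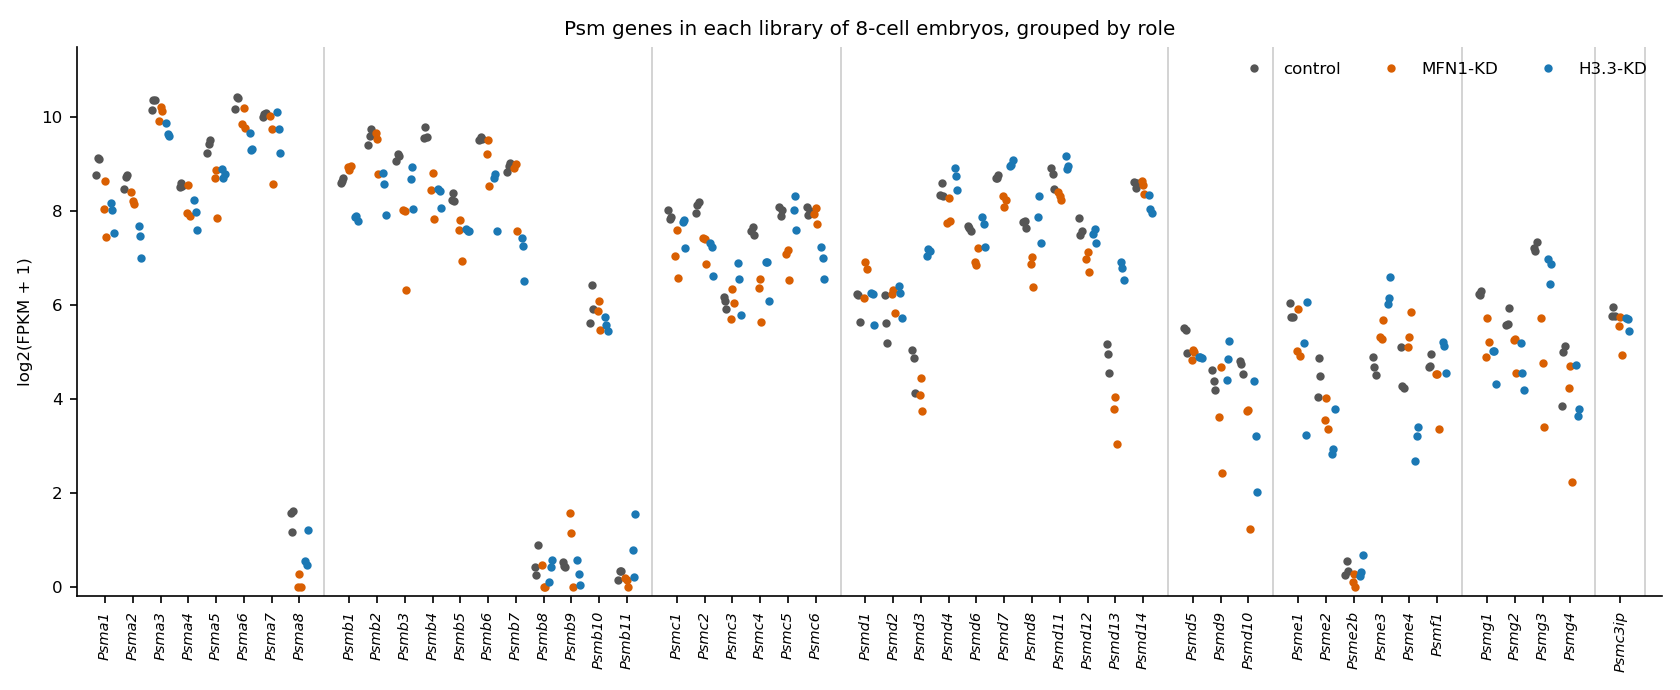
The level of all 50 Psm genes in each of the 9 libraries, as log2(FPKM + 1) on the vertical axis, with 1 point per library and the genes grouped by role from the α ring on the left to the assembly chaperones and Psmc3ip on the right. Psma3, Psma6 and Psma7 are the highest, Psma8, Psmb8, Psmb9, Psmb11 and Psme2b lie near 0, and Psmd3 and Psmd13 stand higher in H3.3-KD than in the other groups.

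The transcripts of the cutting subunits were mainly those of the standard core. Psmb5, which carries the chymotrypsin-like site, was at 301, 332 and 296 FPKM in the control libraries, and its counterpart in the immunoproteasome, Psmb8, was at 0.33, 0.19 and 0.85 FPKM. Psmb6, which carries the caspase-like site, was at 733, 766 and 748 FPKM, and its counterpart Psmb9 at 0.44, 0.36 and 0.33. In no library did Psmb8 or Psmb9 reach 1% of the level of the standard subunit it replaces. The third counterpart differed: Psmb10, which replaces the trypsin-like subunit Psmb7, was at 48.0, 85.8 and 59.9 FPKM in control beside 457, 498 and 523 FPKM of Psmb7, which is 10.5% to 17.2% of it. In MFN1-KD that share was 11.9%, 13.0% and 22.5%, with the third library above every control library. In H3.3-KD it was 30.7% to 47.4%, with 52.8, 46.7 and 43.0 FPKM of Psmb10 against 172, 152 and 90.6 of Psmb7. The H3.3-KD values of Psmb10 overlapped control and those of Psmb7 did not.

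The other 5 members did not reach the level required for testing, and their values are given as a description. Psmb8 and Psmb9, the immunoproteasome subunits above, had at most 0.85 and 1.96 FPKM in any library. Psmb11, the subunit of the thymus-specific core, had at most 1.93 FPKM, and Psme2b, a gene much like Psme2, at most 0.59. Psma8, the α subunit of the core in male germ cells, was at 1.97, 1.26 and 2.05 FPKM in control, 0, 0.20 and 0 in MFN1-KD and 0.46, 0.38 and 1.32 in H3.3-KD. The control values of Psma8 lay above all of MFN1-KD, and 1 H3.3-KD library reached the control range.

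The sequence before the start of the genes was read from RefSeq (GRCm38.p6) as windows of 300 bases, from 250 before to 50 after the start, which were at hand for 42 of the 50 members. For 38 of the 42 the end of the window was found in an annotated transcript of the gene, and all 42 were counted. Motifs were searched on both strands, and each was counted on its own, also where it overlapped another. The letters CCGGAAG, bound by factors of the ETS family, were found in 14 of the 42 windows (33.3%) and in 9.12% of the 27025 windows of all genes. The letters CCAAT, bound by the factor NF-Y, were found in 15 of the 42 (35.7%) against 37.9% of all windows. The letters TGACNNNGC of the antioxidant response element, through which the factor NRF1 acts on proteasome genes, were found in 6 of the 42 (14.3%) against 12.5% of all. The windows of all genes include those of genes that were not tested here, and the shares among the tested genes alone were not computed. A match is a description of the letters only. For 5 members that the comparisons below turn on, the 150 bases before the start are shown 5′ to 3′ on the strand of the gene, in lower case with each complete match to 1 of these motifs, or to its reverse complement, in capitals. None of these stretches lay in another annotated gene, and at most 3 of their bases lay in an annotated exon of the gene itself.
Psme3 (chr11:101316063-101316212, plus strand): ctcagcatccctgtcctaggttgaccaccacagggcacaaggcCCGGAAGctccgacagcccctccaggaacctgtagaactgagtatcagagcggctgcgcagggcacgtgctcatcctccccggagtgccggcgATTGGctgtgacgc
Psma6 (chr12:55384072-55384221, plus strand): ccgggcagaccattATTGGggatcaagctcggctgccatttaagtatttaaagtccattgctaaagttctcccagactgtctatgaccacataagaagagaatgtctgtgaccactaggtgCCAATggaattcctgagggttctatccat
Psmb4 (chr3:94886959-94887108, minus strand): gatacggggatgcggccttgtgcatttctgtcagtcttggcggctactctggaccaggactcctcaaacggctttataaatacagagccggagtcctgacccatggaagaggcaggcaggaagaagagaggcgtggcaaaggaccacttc
Psmb6 (chr11:70525207-70525356, plus strand): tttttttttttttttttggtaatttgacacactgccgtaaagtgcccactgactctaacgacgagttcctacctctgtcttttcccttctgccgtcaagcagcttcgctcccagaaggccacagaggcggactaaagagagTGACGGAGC
Psmg1 (chr16:95990961-95991110, minus strand): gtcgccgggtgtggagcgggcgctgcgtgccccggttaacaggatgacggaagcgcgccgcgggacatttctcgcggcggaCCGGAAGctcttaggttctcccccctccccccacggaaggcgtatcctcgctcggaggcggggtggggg
Psme3 was the activator gene that rose in H3.3-KD, and its stretch holds both an ETS match and a CCAAT match. The other 4 fell in H3.3-KD. Psma6 holds 2 CCAAT matches, Psmb6 an antioxidant response element directly before the start, Psmg1 an ETS match, and Psmb4 none of the 3 motifs in this stretch.

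The first comparison asked how the proteasome genes stood in embryos with less H3.3. In H3.3-KD 16 of the 45 tested members fell and 3 rose against control, at a Benjamini-Hochberg adjusted p under 0.05 over all 13011 genes tested. The 16 are 35.6% of the members, where 9.12% of all genes fell, and the 3 are 6.67%, where 21.8% of all genes rose. The genes that fell were mainly those of the core and its assembly, including 9 of the 14 genes of the standard core, while the 3 that rose were the lid subunits Psmd3 and Psmd13 and the activator Psme3. The median log2 fold change of the members was -0.60, while that of all genes was 0.26, which leaves the members 0.86 below all genes. After median-ratio scaling of the libraries the median of all genes was 0.00. A scaling to a common FPKM sum, which would make the falls smaller, was not run. The groups did not overlap for 26 members on the low side (18.9% of all genes) and for 4 on the high side (34.5% of all genes). At the study's own threshold, more than 2-fold with an unadjusted p under 0.05, 12 members were lower (9.39% of all genes) and 3 higher (23.9% of all genes). The study applied this threshold to results of Deseq2, and here it was applied to those of limma on FPKM. Replicate 3 of H3.3-KD was the lowest library of its group for 33 of the 45 tested members. Without it 11 members fell and 3 rose, and the median of the members relative to all genes was -0.71. In pooled embryos, fewer cells of a type and less RNA per cell cannot be told apart.

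Among the α ring genes 4 of 7 tested fell, and the 7 log2 fold changes were all below 0. Psma2 was at 357, 422 and 439 FPKM in control and at 206, 178 and 127 in H3.3-KD, with a log2 fold change of -1.27 ± 0.22 (SE, adjusted p = 0.00203). All 3 H3.3-KD libraries lay below every control library. Psma6 was at 1161, 1389 and 1369 FPKM in control and at 814, 636 and 638 in H3.3-KD, with a log2 fold change of -0.91 ± 0.19 (SE, adjusted p = 0.00501). The groups again did not overlap. Psma1 fell from 435, 561 and 556 to 289, 259 and 186 FPKM, a log2 fold change of -1.09 ± 0.30 (SE, adjusted p = 0.0198), without overlap, but its call was lost without control replicate 2, control replicate 3 or H3.3-KD replicate 3. Psma3 fell less, by 0.60 on the log2 scale, and lost its call without 1 of control replicates 2 and 3 or without H3.3-KD replicate 2 or 3. Psma4 and Psma5 were also below control in every library without passing the test (adjusted p = 0.0739 and 0.0978). Psma7 was at 1102, 859 and 606 FPKM, which overlapped the control values of 1033, 1078 and 1095.

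Among the β ring genes 5 of 8 tested fell, and again the 8 log2 fold changes were all below 0. Psmb7, the subunit with the trypsin-like site, fell the most, from 457, 498 and 523 FPKM in control to 172, 152 and 90.6 in H3.3-KD, with a log2 fold change of -1.87 ± 0.37 (SE, adjusted p = 0.00431). The highest H3.3-KD library was below the lowest control library, and replicate 3 of H3.3-KD was the lowest. Psmb4, a structural subunit of the ring, was at 759, 884 and 769.6 FPKM in control and at 355, 346 and 267 in H3.3-KD, with a log2 fold change of -1.32 ± 0.25 (SE, adjusted p = 0.00342). The 2 groups lay far apart. Psmb1, another structural subunit, was at 386, 399.8 and 419.8 FPKM against 233, 236 and 220.2, a log2 fold change of -0.80 ± 0.16 (SE, adjusted p = 0.00424), with the smallest standard error of the ring. Psmb2 fell by 1.16 on the log2 scale (adjusted p = 0.0120), with its call lost without control replicate 3. Psmb6 was at 417, 441 and 189 FPKM in H3.3-KD, with a log2 fold change of -1.20 ± 0.34 (SE, adjusted p = 0.0227), and did not overlap control, but its call was lost without any 1 of the control libraries or without H3.3-KD replicate 3. Psmb5 was at 197, 192 and 191 FPKM, below every control library, and missed the threshold at a log2 fold change of -0.67 ± 0.23 (SE, adjusted p = 0.0510). Psmb3 and Psmb10 had log2 fold changes of -0.60 and -0.40 (adjusted p = 0.306 and 0.296).

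Of the 17 Psm genes of the regulatory particle 3 fell (17.6%, where 9.12% of all genes fell) and 2 rose (11.8%, where 21.8% of all genes rose). Its subunits Adrm1 and Sem1 lack the prefix and are counted with the partners below. Of the 6 ATPase genes 3 fell: Psmc6 went from 273, 241 and 256 FPKM to 151, 127 and 92.7, a log2 fold change of -1.08 ± 0.22 (SE, adjusted p = 0.00498). Psmc2 went from 249, 279 and 293 FPKM to 159, 151 and 97.6, a log2 fold change of -1.03 ± 0.25 (SE, adjusted p = 0.0106). Neither overlapped control. Psmc4, at 189, 202 and 180.0 FPKM in control and 119, 119 and 66.8 in H3.3-KD, changed by -0.94 ± 0.30 (SE, adjusted p = 0.0376) and lost its call without any 1 control library or without H3.3-KD replicate 2 or 3. Of the other three, Psmc1 was below control in every library without passing (log2 fold change -0.31), and Psmc5 was at 260.2, 319 and 192 FPKM, which overlapped the control values of 272, 237 and 260.1. Psmc3 overlapped control too, and its log2 fold change of 0.36 turned to -0.068 with upper-quartile scaling and to -0.40 after removal of the GC and length trend. Of the 11 non-ATPase genes 2 rose (18.2%, where 21.8% of all genes rose) and 0 fell in limma's test. Of these 11, 1 (Psmd14, at a log2 fold change of -0.44) was lower at an unadjusted p under 0.05 (13.2% of all genes). Their median log2 fold change of 0.28 stood 0.02 above that of all genes, and it was -0.059 with median-ratio scaling, under which 1 gene fell, -0.15 with upper-quartile scaling, under which 2 fell, and -0.28 after removal of the GC and length trend.

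Psmd3 and Psmd13, both of which encode scaffold subunits of the lid, moved opposite to most members. Psmd3 (GENCODE M21 on mm10, chromosome 11, 98682554 to 98695979, plus strand) was at 32.0, 28.4 and 16.4 FPKM in control, 16.1, 20.8 and 12.4 in MFN1-KD and 132, 145 and 142 in H3.3-KD. The H3.3-KD libraries were close to each other and all above every library of the other groups. The log2 fold change against control was 2.45 ± 0.30 (SE, adjusted p = 3.48e-04), which is 5.47-fold. Psmd13 was at 34.9, 30.3 and 22.6 FPKM in control and 119, 111 and 91.8 in H3.3-KD, with a log2 fold change of 1.85 ± 0.30 (SE, adjusted p = 0.00164), or 3.60-fold. Again the groups did not overlap, and both calls held in all 18 alternatives. In control they were the 2 least abundant of the 17 tested regulatory genes, and in H3.3-KD they overlapped the range of the ATPase gene Psmc2 at 159, 151 and 97.6 FPKM. Of the exon bases of Psmd13, 10.1% are shared with Sirt3 on the opposite strand, a gene at 0.42 to 1.37 FPKM in H3.3-KD. The other members of the class had log2 fold changes between -0.44 for Psmd14, the deubiquitinase of the particle, and 0.46 for Psmd2, which was at -0.28 after removal of the GC and length trend.

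**Figure D2:**
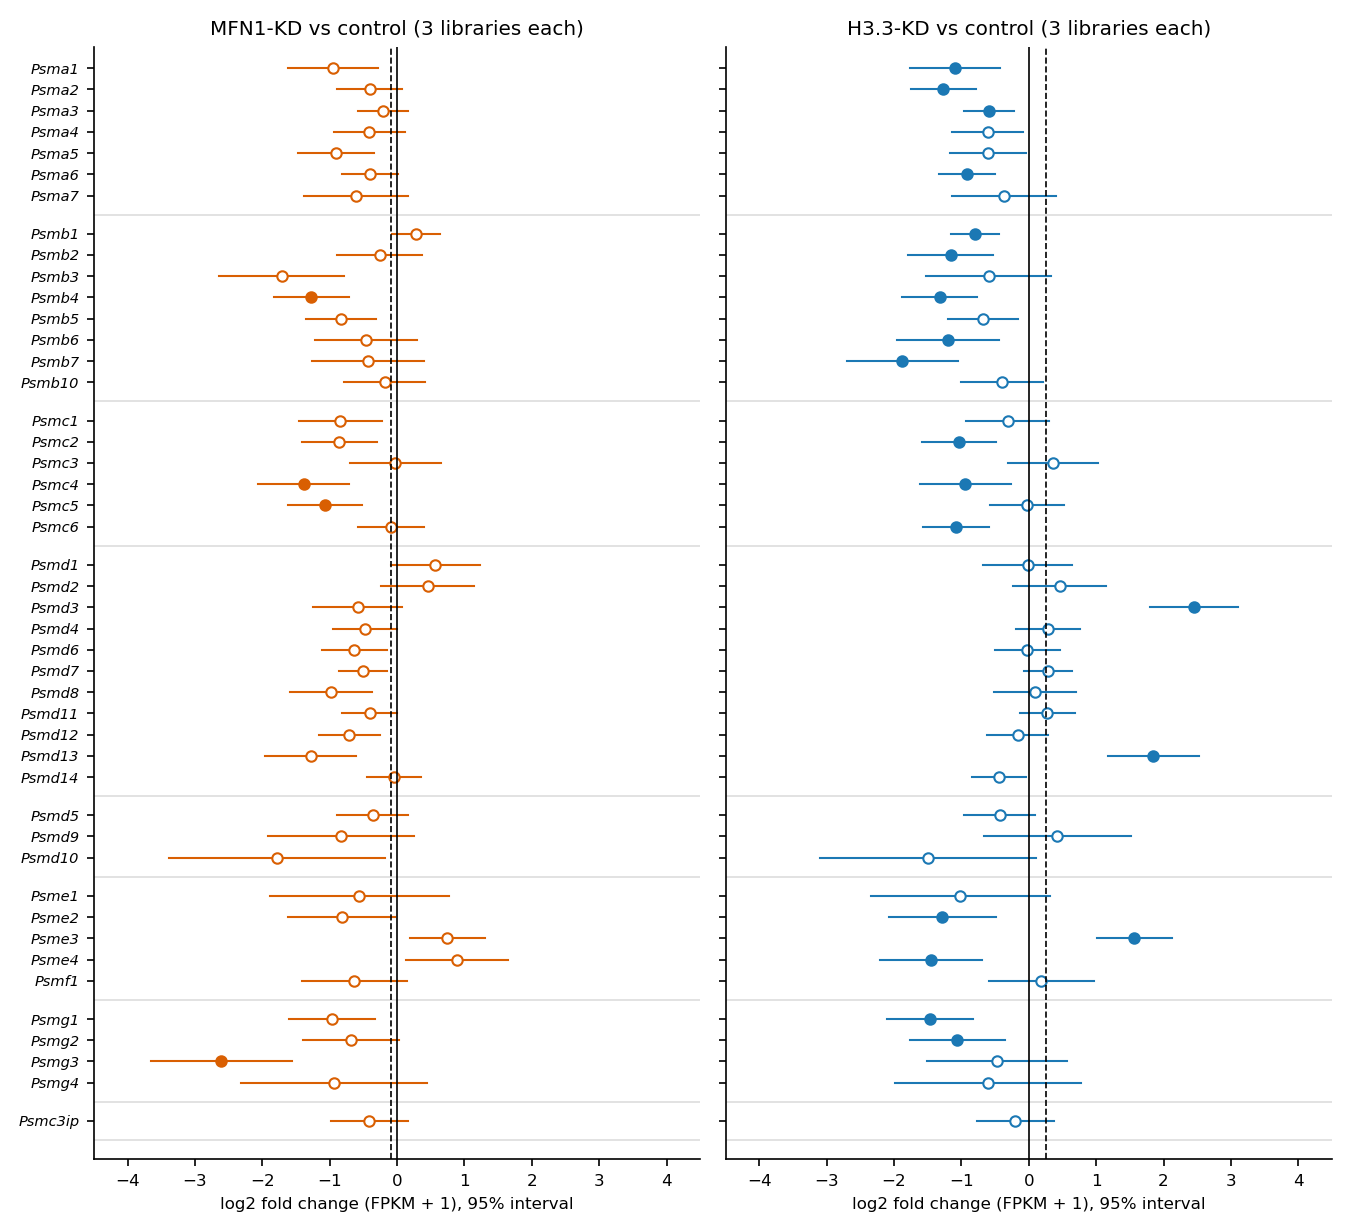
The log2 fold change of each of the 45 tested Psm genes in MFN1-KD (left, orange) and H3.3-KD (right, blue) against control, with its 95% interval from limma, genes grouped by role as in the plot of all members. Filled points passed an adjusted p under 0.05 (4 for MFN1-KD, 19 for H3.3-KD), the solid line marks 0 and the dashed line the median of all 13011 genes.

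The caps other than the regulatory particle moved in both directions in H3.3-KD. Psme3, which encodes the nuclear activator ring that works without ATP, was at 28.5, 24.5 and 21.7 FPKM in control and 63.9, 70.1 and 95.8 in H3.3-KD, with a log2 fold change of 1.57 ± 0.25 (SE, adjusted p = 0.00133). Each H3.3-KD library was above every control library. Psme4, which encodes the activator known for the removal of acetylated histones in sperm, was at 33.4, 18.4 and 17.9 FPKM in control and 5.36, 8.25 and 9.55 in H3.3-KD, with a log2 fold change of -1.45 ± 0.34 (SE, adjusted p = 0.00963). Every H3.3-KD library was below every control library. Psme2, a subunit of the interferon-inducible activator, fell by 1.28 on the log2 scale (adjusted p = 0.0213), and its call was lost without 1 of control replicates 2 and 3 or without H3.3-KD replicate 1 or 2. Its partner subunit Psme1 was at 35.8, 8.39 and 66.0 FPKM in H3.3-KD against 65.4, 53.0 and 52.6 in control, too scattered for a call (log2 fold change -1.02 ± 0.60 (SE, adjusted p = 0.225)). Psmf1, the inhibitor, had a log2 fold change of 0.19 (adjusted p = 0.724), which was -0.14 with median-ratio scaling, -0.23 with upper-quartile scaling and -0.41 after removal of the GC and length trend.

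The core assembly chaperones work as pairs, and in H3.3-KD the 2 genes of the first pair fell. Psmg1 was at 74.0, 73.5 and 78.2 FPKM in control and 31.3, 31.4 and 19.0 in H3.3-KD, with a log2 fold change of -1.47 ± 0.29 (SE, adjusted p = 0.00396). Psmg2 was at 46.9, 47.4 and 60.5 FPKM in control and 35.6, 22.4 and 17.4 in H3.3-KD, with a log2 fold change of -1.06 ± 0.32 (SE, adjusted p = 0.0290). Neither overlapped control, and the call of Psmg2 was lost without any 1 control library or without H3.3-KD replicate 2 or 3. The genes of the second pair, Psmg3 and Psmg4, had log2 fold changes of -0.47 and -0.61 and did not pass (adjusted p = 0.476 and 0.491). Of the chaperones of the regulatory particle, Psmd10 (gankyrin) was at 19.9, 8.21 and 3.04 FPKM in H3.3-KD against 27.0, 25.8 and 22.0 in control, below it in every library but with a standard error of 0.72, and did not pass (log2 fold change -1.49, adjusted p = 0.143). Psmd5 and Psmd9 did not pass either. Psmc3ip, the member by name only, was at 51.9, 51.3 and 42.5 FPKM against 53.1, 60.9 and 53.7 in control, with 21.2% of its exon bases shared with Mlx on the opposite strand, and did not pass.

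Of the 19 calls in H3.3-KD, 12 held under all 18 alternatives: the 3 higher ones and 9 of the 16 lower ones (Psma2, Psma6, Psmb1, Psmb4, Psmb7, Psmc2, Psmc6, Psme4, Psmg1). The number of lower calls was 10 without control replicate 2 and 9 without control replicate 3.

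The second comparison asked the same of embryos with less Mfn1. In MFN1-KD most members lay below control, but few passed the test: 4 of the 45 tested (8.89%) fell, where 2.20% of all genes fell, and 0 rose, where 1.15% of all genes rose. At an unadjusted p under 0.05, 21 members passed in either direction (23.2% of all genes). At the study's threshold 7 members were lower (9.05% of all genes) and 0 higher (5.02% of all genes). The genes that fell were Psmg3, Psmb4, Psmc4 and Psmc5. The median log2 fold change of the members was -0.59, with that of all genes at -0.08, and 40 of the 45 were below 0. The groups did not overlap for 24 members on the low side (16.8% of all genes) and for 3 on the high side (11.4% of all genes).

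Psmg3, which encodes an assembly chaperone of the α ring, had the largest change of all members in this comparison. It was at 149, 141 and 161 FPKM in control and at 51.9, 26.4 and 9.56 in MFN1-KD, a log2 fold change of -2.61 ± 0.47 (SE, adjusted p = 0.0333). The highest MFN1-KD library was far below the lowest control library, and the 3 libraries of MFN1-KD spread from each other by more than those of control. Psmb4 was at 351, 452 and 228 FPKM in MFN1-KD, a log2 fold change of -1.28 ± 0.25 (SE, adjusted p = 0.0359), with each library below every control library. The ATPase genes Psmc4 and Psmc5 were at 81.7, 93.8 and 48.9 FPKM and at 136, 144 and 91.3 FPKM in MFN1-KD, against 189, 202 and 180.0 and 272, 237 and 260.1 in control. Their log2 fold changes were -1.39 ± 0.30 (SE, adjusted p = 0.0426) and -1.07 ± 0.25 (SE, adjusted p = 0.0479). In neither did the groups overlap. Psmb4 and Psmc4 were also among the genes that fell in H3.3-KD, a comparison with the same control libraries.

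These 4 calls were sensitive to the analysis. The number of members called lower was 0 when any 1 of the control libraries was omitted. It was also 0 on omission of H3.3-KD replicate 1 or of replicate 2, which are not compared here but share the estimate of the spread and the filter on low values. Omission of MFN1-KD replicate 1, 2 or 3 gave 1, 10 and 2 such members. The number was 0 again when only the 6 libraries compared were used and 9 when a mean of 10 FPKM was required, and no one call held in more than 10 of the 18 alternatives.

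Members close to the threshold stood on the same side. Psmd13 was at 12.7, 15.4 and 7.28 FPKM in MFN1-KD against 34.9, 30.3 and 22.6 in control, a log2 fold change of -1.28 ± 0.30 (SE, adjusted p = 0.0501). Psmb3, a structural β subunit, was at 258, 254 and 79.2 FPKM against 534, 595 and 581, a log2 fold change of -1.71 ± 0.42 (SE, adjusted p = 0.0551). The groups were apart for both genes, and replicate 3 of MFN1-KD was the lowest library of each. That library was the lowest of its group for 34 of the 45 tested members, close to the number for replicate 3 of H3.3-KD, among them Psmb7 at 487, 515 and 191 FPKM and Psmd10 at 12.3, 12.6 and 1.34 FPKM, and it also had the fewest entries above 0. Without it the log2 fold change of Psmb7 went from -0.44 to 0.026, and the median of the members relative to all genes from -0.50 to -0.38. Among the catalytic genes Psmb5 was at 192, 224 and 121 FPKM, below every control library, at a log2 fold change of -0.83 ± 0.23 (SE, adjusted p = 0.0787), and Psmb6 at 596, 734 and 369 FPKM overlapped control.

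A few members were above control in every MFN1-KD library, without passing the test. Psme4 was at 33.7, 39.0 and 56.5 FPKM against 33.4, 18.4 and 17.9 in control, a log2 fold change of 0.89 ± 0.34 (SE, adjusted p = 0.157). Psme3 was at 39.1, 38.1 and 50.4 FPKM against 28.5, 24.5 and 21.7, a log2 fold change of 0.75 ± 0.25 (SE, adjusted p = 0.114). For Psme4 the lowest MFN1-KD library was just above the highest control library, and for Psme3 the groups were wider apart. Psmb1 was at 495, 472 and 497 FPKM against 386, 399.8 and 419.8, a log2 fold change of 0.28 ± 0.16 (SE, adjusted p = 0.327), with the replicates of both groups close together. Psmd1, a large scaffold subunit of the base, had the highest log2 fold change of the non-ATPase genes at 0.57 (adjusted p = 0.288), and its groups overlapped.

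**Figure D3:**
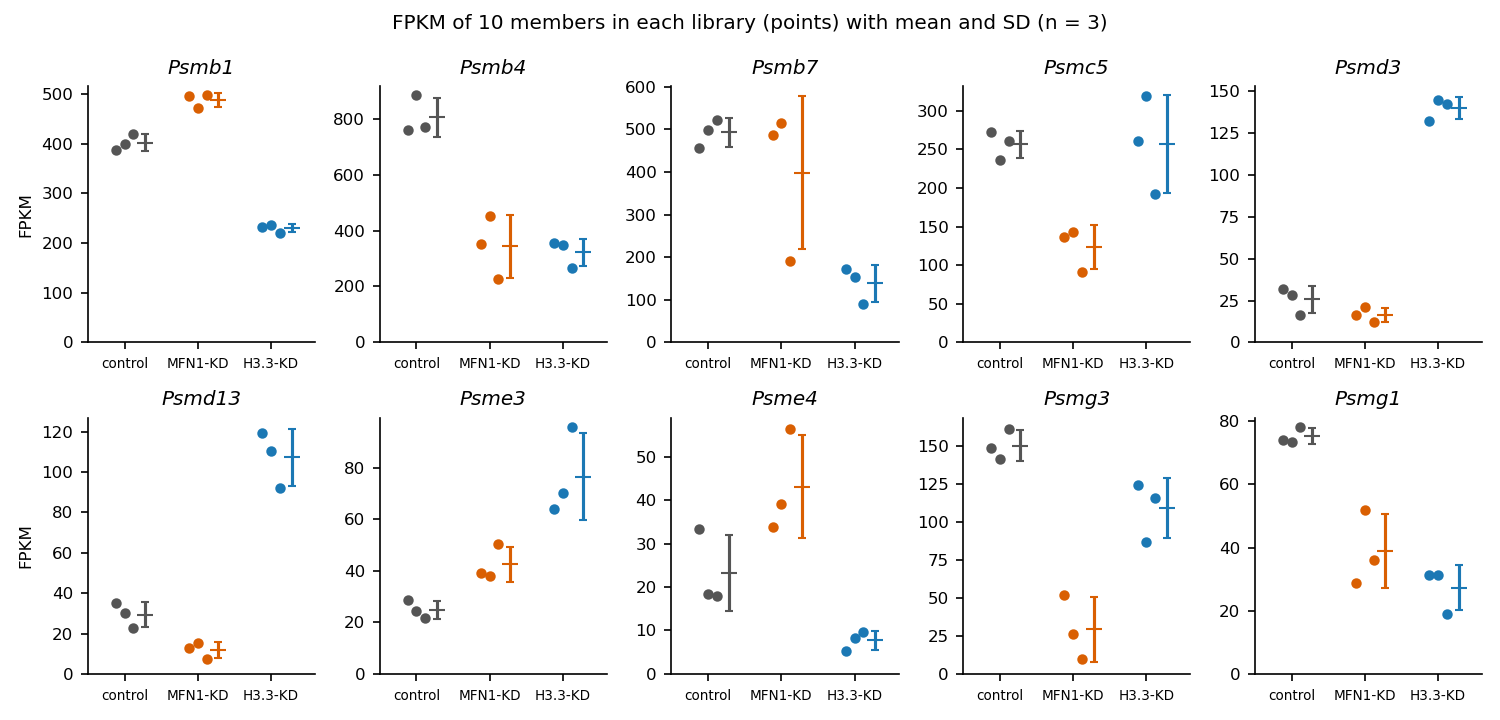
FPKM of 10 members in each library, with points for the 3 libraries of control, MFN1-KD and H3.3-KD and a bar for the mean and SD beside them, on linear axes from 0. Psmb4 and Psmg1 lay below control in both knockdowns, Psmb1, Psmb7 and Psme4 were lowest in H3.3-KD, Psmg3 and Psmc5 were lowest in MFN1-KD, and Psmd3, Psmd13 and Psme3 were highest in H3.3-KD.

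The knockdowns were then compared with each other, which is the test of whether a member's change differed between them. At the adjusted threshold 10 of the 45 members (22.2%) were higher in H3.3-KD than in MFN1-KD, where 27.6% of all genes were higher, and 6 (13.3%) were lower, where 11.0% of all genes were lower. This division depended on the scaling: the numbers were 4 higher and 12 lower with median-ratio scaling, 3 and 13 with upper-quartile scaling and 3 and 16 after removal of the GC and length trend. At the study's threshold 7 members were higher (29.1% of all genes) and 3 lower (11.0% of all genes), and without overlap 13 were higher (33.1% of all genes) and 8 lower (14.8% of all genes). Relative to all genes the median difference of the members was -0.24. The calls of 6 members held in all 18 alternatives. Psmd13 and Psmd3 were higher in H3.3-KD by 3.13 ± 0.30 (SE, adjusted p = 7.60e-05) and 3.04 ± 0.30 (SE, adjusted p = 7.64e-05) on the log2 scale. Psme4 was lower by a difference of -2.34 ± 0.34 (SE, adjusted p = 5.79e-04), Psmb7 by -1.44 ± 0.37 (SE, adjusted p = 0.0121), Psmb1 by -1.08 ± 0.16 (SE, adjusted p = 6.13e-04) and Psma2 by -0.87 ± 0.22 (SE, adjusted p = 0.0104).

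Psme4 lay on opposite sides of control in the knockdowns, above it in every MFN1-KD library and below it in every H3.3-KD library, and so did Psmb1. Psmd13 lay on opposite sides too, in the other order. Psmg3 was higher in H3.3-KD than in MFN1-KD by 2.13 ± 0.47 (SE, adjusted p = 0.00529) and Psmc5 by 1.05 ± 0.25 (SE, adjusted p = 0.00795). Psmc5 overlapped control in H3.3-KD and fell in MFN1-KD. Both differences lost their call after removal of the GC and length trend, and that of Psmc5 also with upper-quartile scaling. The other lower members were Psmc6, at a difference of -0.98 whose call was lost after removal of that trend, and Psmb2 at -0.90. Psmb2 overlapped between the groups and lost its call without 1 of MFN1-KD replicates 1 and 2 or of H3.3-KD replicates 2 and 3. The non-ATPase genes Psmd4, Psmd6, Psmd7, Psmd8 and Psmd11 were higher in H3.3-KD, with differences of 0.76, 0.62, 0.80, 1.08 and 0.69, and their calls were lost with median-ratio and upper-quartile scaling. After removal of the GC and length trend the call of Psmd11 held, while those of the other four were lost, with differences of -0.34 for Psmd4, 0.22 for Psmd6, 0.069 for Psmd7 and 0.0022 for Psmd8. The call of Psmd6 held in only 5 of the 18 alternatives and was lost without any 1 of the control libraries, of MFN1-KD replicates 1 and 2 and of H3.3-KD replicates 1 and 2, that of Psmd4 was lost without MFN1-KD replicate 1 or 1 of H3.3-KD replicates 1 and 2, and that of Psmd11 without H3.3-KD replicate 1. Psme3 was higher by 0.82, a call lost under both scalings and without any 1 of MFN1-KD replicates 1 and 2 and H3.3-KD replicates 2 and 3, and the difference was -0.0062 after removal of the GC and length trend. For Psmb4 the interval of the difference was -0.61 to 0.51, and a difference between its falls in the knockdowns was not detected, though it was lower in H3.3-KD by a difference of -0.81 after removal of the GC and length trend (limma, adjusted p = 0.00796).

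The level of the core genes relative to the regulatory genes was lowest in H3.3-KD. In each library the median FPKM of the 14 standard core genes was divided by that of the 17 regulatory genes. The ratio was 2.46, 2.91 and 3.29 in control and 3.60, 3.39 and 2.52 in MFN1-KD, which overlapped. It was 2.11, 1.86 and 1.55 in H3.3-KD, below every other library. This is a description of the genes that passed the filter and carries no test. The medians of the core in H3.3-KD were 383, 364 and 230.0 FPKM against 569, 644 and 654 in control, and those of the regulatory genes 182, 195 and 149 against 231, 221 and 199. Replicate 3 of H3.3-KD was the lowest of its group in both.

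**Figure D4:**
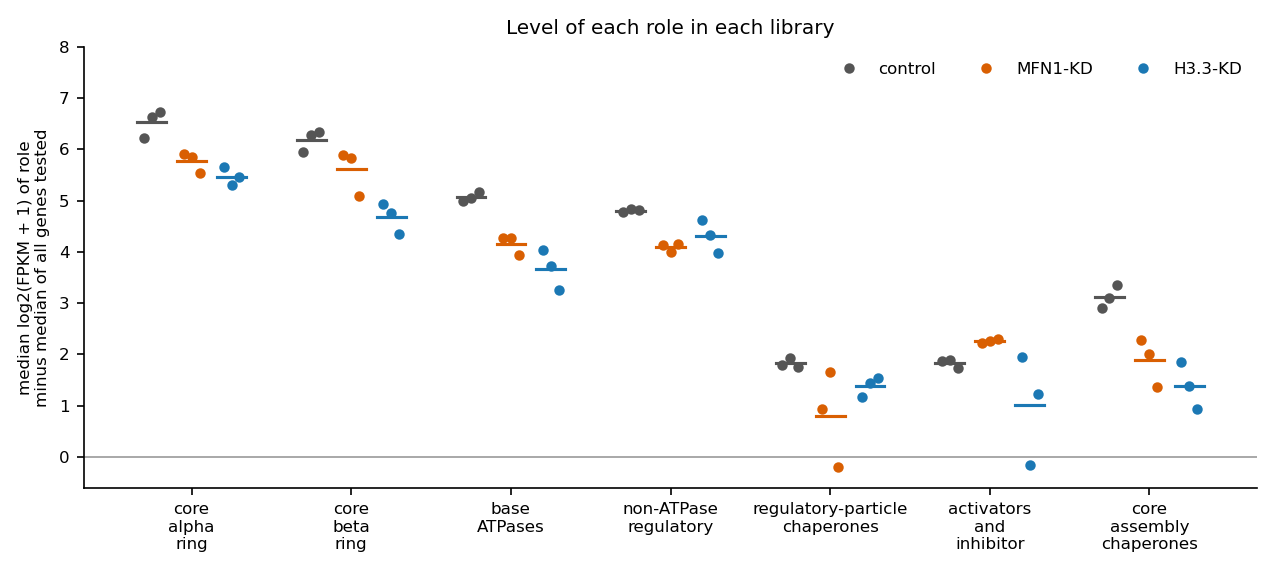
For each role of the Psm genes and each library, the median log2(FPKM + 1) of the tested genes of that role minus the median of all 13011 genes in the same library, with a bar at the mean of the 3 libraries and a grey line at 0. On this scale, which compares medians of levels and not fold changes gene by gene, the α and β rings, the ATPases, the non-ATPase genes and the chaperones of both particles in both knockdowns lay below every control library, while the activators and inhibitor lay above it in MFN1-KD.

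Other genes of the pathway were counted from lists chosen beside the members. In H3.3-KD 21.8% of all genes rose and 9.12% fell, and in MFN1-KD 1.15% rose. Of 11 tested partners of the proteasome, 4 (36.4%) rose and 2 (18.2%) fell in H3.3-KD, and 1 (9.09%) rose in MFN1-KD. With upper-quartile scaling 2 rose and 3 fell in H3.3-KD. The 2 that fell were Pomp, the maturation factor of the β ring, from 565, 418 and 519 FPKM to 237, 211 and 164, and Sem1, a small lid subunit, from 392, 430.4 and 438 to 197, 189.9 and 159. Their log2 fold changes were -1.30 ± 0.21 (SE, adjusted p = 0.00141) and -1.21 ± 0.18 (SE, adjusted p = 0.00102), and neither overlapped control. Adrm1, another subunit of the regulatory particle, was among those that rose in H3.3-KD, from 347, 266 and 237 FPKM to 611, 528 and 561. Its log2 fold change was 1.01 ± 0.22 (SE, limma, adjusted p = 0.00589), without overlap. Zfand5, a zinc finger protein that binds and stimulates the proteasome, led the list in both comparisons. It was at 146, 113 and 93.0 FPKM in control, 254, 317 and 739 in MFN1-KD and 648, 786 and 1408 in H3.3-KD. Its log2 fold changes were 1.75 ± 0.41 (SE, adjusted p = 0.0479) in MFN1-KD and 2.94 ± 0.41 (SE, adjusted p = 6.61e-04) in H3.3-KD, and the first call held in only 5 of the 18 alternatives. It was lost without any 1 of the control libraries, of MFN1-KD replicates 2 and 3 and of H3.3-KD replicates 1 and 2.

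Of the 11 genes for the transcription factors of proteasome genes and the processing of NRF1, 7 (63.6%) rose and 0 fell in H3.3-KD. Of all genes 21.8% rose there and 9.12% fell. In MFN1-KD 0 passed, and 2 had an unadjusted p under 0.05 (23.2% of all genes). The count in H3.3-KD was 6 higher and 1 lower under median-ratio and upper-quartile scaling and 3 higher after removal of the GC and length trend. Nfe2l1, which encodes NRF1 itself, was at 6.06, 3.85 and 3.84 FPKM in control and 14.4, 21.1 and 15.1 in H3.3-KD, with a log2 fold change of 1.68 ± 0.46 (SE, adjusted p = 0.0193). All H3.3-KD libraries were above control, and the call was lost without 1 of control replicates 2 and 3 or without H3.3-KD replicate 2 and after removal of the GC and length trend. Maff, a small partner of NRF1 on DNA, led the list at 9.87, 16.5 and 21.8 FPKM against 2.30, 0.87 and 1.11 in control, a log2 fold change of 2.79 ± 0.39 (SE, adjusted p = 6.40e-04). In MFN1-KD the leading gene was Nfyc, a subunit of NF-Y, with a log2 fold change of -0.94 ± 0.23 (SE, adjusted p = 0.0553).

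Of 17 ubiquitin genes, E1 enzymes and shuttles, 7 (41.2%) rose and 1 (5.88%) fell in H3.3-KD, and 2 (11.8%) rose in MFN1-KD. Of all genes 21.8% rose and 9.12% fell in H3.3-KD, and 1.15% rose in MFN1-KD. With upper-quartile scaling 6 rose and 4 fell in H3.3-KD, and with median-ratio scaling 6 and 3. The 1 that fell, Rps27a, lost its call without 1 of control replicates 2 and 3 or without H3.3-KD replicate 3. Rad23b, which carries ubiquitin-tagged proteins to the proteasome, was at 14.4, 8.86 and 5.97 FPKM in control and 86.8, 90.5 and 77.9 in H3.3-KD, with a log2 fold change of 3.07 ± 0.30 (SE, adjusted p = 1.62e-04). In MFN1-KD the leading gene was the shuttle Ubqln2, at 13.3, 12.6 and 33.6 FPKM against 4.47, 2.48 and 1.73 in control, a log2 fold change of 2.34 ± 0.42 (SE, adjusted p = 0.0333), with its call lost without any 1 control library or H3.3-KD replicate 1 or 2. Of 15 genes of interferon signalling and antigen presentation, 7 were tested. In H3.3-KD 2 rose (28.6%, where 21.8% of all genes rose), led by Stat2 at a log2 fold change of 2.08 ± 0.47 (SE, adjusted p = 0.00800). There 1 fell (14.3%, where 9.12% of all genes fell), which was B2m at -1.83, a call lost without control replicate 3. The second gene that rose, Bst2, kept its call in only 4 of the 18 alternatives and lost it without any 1 control or H3.3-KD library. In MFN1-KD 0 passed with 1 (Bst2, at -1.66) at an unadjusted p under 0.05 (23.2% of all genes). Irf1 and Tap1, genes of the interferon response and of peptide transport, stayed under the level required for testing, as did Psmb8 and Psmb9, which that signal induces.

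The windows before the start were set beside these calls without a test. Of the 12 windows at hand for genes that fell in H3.3-KD, 4 held the ETS letters, 5 the CCAAT letters and 3 the antioxidant response element. Both windows of genes that rose, those of Psmd13 and Psme3, held the ETS letters. Of the 24 windows of tested members that did not pass, 8 held the ETS letters, 7 the CCAAT letters and 3 the element. No such window was at hand for Psmd3, Psmb1 or Psmb7. The 4 entries named as pseudogenes of a Psm gene, those of Psmb5, Psmb6 and Psmb7, were at 0.62 FPKM or less in every library. Copies with other names were not searched for, so shared reads with them were not tested. Exons shared with a gene on the opposite strand made up 25.5% of the exon bases of Psmd9, 11.8% of those of Psmb7 (Nek6, at most 4.41 FPKM) and 8.25% of those of Psmc3 (Slc39a13, at most 6.88 FPKM, in H3.3-KD). Whether the counting used strand is not given, so reads from such partners cannot be told apart.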

How the data were processed

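RNA was measured in 9 libraries, 3 for each of 3 groups, grouped by their labels. The deposited values are FPKM, which the authors made from paired-end Smart-Seq2 reads trimmed with cutadapt 1.16 and aligned with STAR to mm10. The program, annotation and strand setting behind the FPKM are not given in the sources used here. Neither is read depth, so no counting interval could be given, and the 3 libraries per group limit the precision.

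Values were tested as log2(FPKM + 1) with limma 3.58.1 (trend, robust, R 4.3.3) over all 9 libraries for the 13011 genes whose mean reached 1 FPKM. The design had no covariate, and p-values were adjusted by Benjamini-Hochberg over all genes. A fold change on this scale understates the change of low genes. On simulated data with log2 changes of 2 in 200 of 13011 genes, 57% were recovered for MFN1-KD against control and 62.5% for H3.3-KD. The changed genes were drawn from the more abundant ones, and each gene had the same spread in all groups. In the real H3.3-KD comparison 21.8% of genes rose and 9.12% fell, so 62.5% does not give its power. Values in every library were given for the catalytic β genes and their counterparts, for called members (at most the 12 largest changes per knockdown) and for the most abundant and most changed member of each role. Other genes were named after their values were seen. Figures were drawn with matplotlib 3.10.9. Alternatives were other scalings, filters, pseudocounts, sets of libraries, a replicate block, library weights and removal of the GC and length trend. The members and gene lists were chosen with earlier results of these data known, so no list was tested.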

Additional observations from a re-analysis of the deposited data

How the results depend on the processing

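Depth is unknown here, and 3 libraries per group limit what could be detected. The members called lower in MFN1-KD numbered 0 without the filter on low values and with only the 6 libraries compared, 1 after removal of the GC and length trend, 9 with a minimum of 10 FPKM, 13 with library weights, 7 at the study's threshold, and 0 to 10 when 1 library was left out. No label says that the replicate numbers pair the libraries. Same-numbered libraries of different groups correlated in their deviations at -0.05 to 0.16, and differently numbered ones at -0.12 to 0.07. Whether same-numbered libraries shared a round of fertilization was not tested. With a replicate block the members called lower in MFN1-KD numbered 0, and those in H3.3-KD 17. The members called lower in H3.3-KD numbered 9 to 20 with 1 library left out. Between the knockdowns the members called higher numbered 4 with median-ratio scaling, 3 with upper-quartile scaling and 3 after removal of the trend, those called lower 12, 13 and 16, and 3 were lower at the study's threshold. Relative to all genes, the median of the members went from -0.50 in MFN1-KD to -0.39 after removal of the trend and to between -0.56 and -0.38 with 1 library left out. In H3.3-KD it went from -0.86 to -0.50 without the filter and to between -0.96 and -0.64 with 1 library left out. Without the filter genes at or near 0 joined both medians. That of all genes went from 0.26 to 0.04, and that of the members, then 50, from -0.60 to -0.46. Between the knockdowns the median of the members relative to all genes went from -0.24 to 0.15 without the filter. With 1 library left out it was between -0.46 and -0.18. The fall of Mfn1 missed the threshold at -2.66 without the filter and with 6 libraries, at -3.00 with a pseudocount of 0.1, and in several of the fits without 1 library, whose values were -3.20 to -2.05. Without the filter Psma1, Psmb6, Psmc4, Psme2 and Psmg2 lost their call in H3.3-KD. The cause of these changes was not tested.

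Some members changed sign. In MFN1-KD against control, removal of the trend gave 0.32 for Psmb10, 0.18 for Psmb2, 0.0072 for Psmb6, 0.45 for Psmc3, 0.036 for Psmc3ip and 0.23 for Psmd14. Median-ratio and upper-quartile scaling gave 0.031 and 0.028 for Psmc3 and 0.017 and 0.014 for Psmd14, and library weights gave 0.0059 for Psmc6 and 0.059 for Psmd14. With 1 library left out the ranges were -0.38 to 0.036 for Psmb10, -0.43 to 0.0097 for Psmb2, -0.69 to 0.026 for Psmb7, -0.18 to 0.14 for Psmc3, -0.17 to 0.0015 for Psmc6 and -0.10 to 0.032 for Psmd14. In H3.3-KD against control, Psmc3 was at -0.068 with upper-quartile scaling and -0.40 after removal of the trend, Psmd11 at -0.059 and -0.15 under the 2 scalings, Psmd9 at -0.25 after removal of the trend, Psmd2 at -0.28 after removal of the trend, Psmf1 at -0.14 and -0.23 under the 2 scalings and -0.41 after removal of the trend, and Psmc5 and Psmd1 at 0.20 and 0.055 with library weights. With 1 library left out Psmc5 ranged from -0.19 to 0.17 and Psmd1 from -0.21 to 0.21. Psme3, higher in H3.3-KD than in MFN1-KD, was at -0.0062 after removal of the trend, and Psmd4 at -0.34. Psmb4 ranged from -0.31 to 0.18 between the knockdowns with 1 library left out. Over the named genes and settings, 1572 values kept their direction and side of the threshold, 164 lost a call, 59 gained one and 39 changed sign.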
